A study of Mus musculus with 2 samples.

Results

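Many annotated genes have transcripts in which an intron, or a piece of one, is left in the RNA. The 200 genes described here are those in which such retained-intron transcripts held the highest share of a gene's RNA in mouse hippocampus. For each gene, the TPM (a level corrected for transcript length and library size) of all transcripts annotated as retained_intron were summed and divided by the summed TPM of the gene, both from the second of the deposited transcript tables. Genes entered the ranking if they reached 10 TPM in both libraries and had at least 1 protein_coding transcript, which 8164 of 55450 annotated genes did. The mean of this share over the libraries ranked the genes, and the 200 highest were taken, 2.45% of the genes ranked. The genes were thus chosen by their measured TPM shares in these same libraries, which are given as a description and are not tested.

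The tissue was hippocampus of B6CASTF1/J mice, a cross of C57BL/6J with the CAST/EiJ strain, which were female and between 8 and 10 months old. Each of 2 total RNA libraries was made from 300 ng with synthetic ERCC spike-in transcripts added. No treatment or allele beyond the strain is given, and the libraries form 1 group, so there is no comparison between conditions. The labels name animals 1 and 5 but give both the same donor identifier. They were read here as separate animals, and the spread between them, which may be in part technical, rests on that reading. The second transcript table held 36354580 estimated counts on annotated genes in replicate 1 and 30279344 in replicate 2. Of 45 cell type markers, 43 reached 1 TPM in both libraries, among them those of excitatory neurons, CA1, CA3, dentate granule cells and glia. The 4 choroid plexus markers summed to 22.3 TPM in replicate 1 and 593 TPM in replicate 2, and whether this tissue moved with any value below was not tested.

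Introns are removed from most messages in the nucleus before export. An RNA that keeps an intron is often held in the nucleus, and if it reaches the cytoplasm an early stop codon in the intron can send it to nonsense-mediated decay. Genes for splicing factors are known for keeping introns in their own RNA, and in neurons some transcripts with kept introns are stored in the nucleus and spliced after activity. Total RNA holds nuclear and cytoplasmic RNA alike, and which compartment these transcripts came from was not measured.

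The introns that were kept can be read from the annotated transcripts. The splice sites of 6 introns are shown because the transcripts that hold them lead the retained-intron RNA of their genes and their genes passed 50% under every measure of the share used below. The 5′ site is given as 3 exon bases and the first 6 intron bases, with the intron bases in capitals. The 3′ site is given as the last 20 intron bases, with the final AG in capitals, and 3 exon bases. Sequences are from the GENCODE M21 transcripts, written 5′ to 3′ on the strand of the gene, and positions are on mm10 (GRCm38).
Rps20 5′ site: aggGTCAGT
Rps20 3′ site: catgctttcttaacccgcAGttt
Carmil2 5′ site: acgGTGGGT
Carmil2 3′ site: tgaagcctggtggggcccAGgtc
Tbl3 5′ site: gcaGTGAGT
Tbl3 3′ site: ttgtctgtccctgctttcAGttt
Fam98c 5′ site: gggGTAAAA
Fam98c 3′ site: tgacgcgtgccccgccgcAGgta
Rsrp1 5′ site: gagGTAAGT
Rsrp1 3′ site: aaaattctcttcctctttAGcat
Arglu1 5′ site: gagGTAACG
Arglu1 3′ site: caacatgtcctcccctttAGgag
The Rps20 intron lies at chr4:3835010-3835191 on the minus strand and is 182 bases long. The Carmil2 intron, the intron in place 21 of 38, lies at chr8:105690920-105691082 on the plus strand. The Tbl3 intron is 79 bases long at chr17:24705318-24705396 on the minus strand, and that of Fam98c is 99 bases long at chr7:29156031-29156129 on the minus strand. The introns of Rsrp1 (chr4:134925433-134926734, plus strand, 1302 bases) and Arglu1 (chr8:8681468-8683747, minus strand, 2280 bases) are longer. The Fam98c intron lies within an exon of another coding transcript of that gene. All 6 begin with GT and end with AG, the usual ends of a mammalian intron. Rsrp1 and Tbl3 start with GTAAG or GTGAG, the most common start, and the other 4 do not.

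Retained-intron transcripts held a median share of 65.2% of the TPM of these 200 genes, against 4.55% in the 7964 other genes ranked. The median was 65.5% in replicate 1 and 65.9% in replicate 2, and the mean shares ran from 56.8% to 99.8%. There were 12 genes at 90% or more, 18 between 80% and 90%, 34 between 70% and 80%, 92 between 60% and 70%, and 44 under 60%. All 200 had a mean share of at least 50%, and 197 did so in each library. Another 105 of the other genes also reached 50%, and no gap separates them from the 200. All 200 had an annotated retained_intron transcript, against 5104 of the 7964 other genes. A gene without one has a share of 0% by annotation alone. The median number of these transcripts was 4 in the 200 genes and 1 in the others. The last genes taken were Prdx2 at 57.0%, Ppp6r2 at 56.9% and Ilf2 at 56.8%. The first genes left out were Slc35b4 at 56.7%, Afg3l1 at 56.6% and Ssh3 at 56.5%.

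The 200 genes were not low in total. Their median gene level was 28.8 TPM, against 29.1 TPM in the other genes. What differed was the split, which follows from how the genes were ranked: their coding transcripts had a median of 7.51 TPM, against 22.3 TPM in the other genes. A coding transcript was seen nonetheless in most of them, with a summed coding level of at least 1 TPM in both libraries in 189 genes and of at least 10 TPM in both in 65 genes. In 3 genes it stayed under 1 TPM in both. Together the 200 genes had 69.1% and 69.7% of their TPM on retained-intron transcripts in replicates 1 and 2. Over all annotated transcripts, retained-intron transcripts held 4.71% and 4.80% of TPM.

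**Figure D1:**
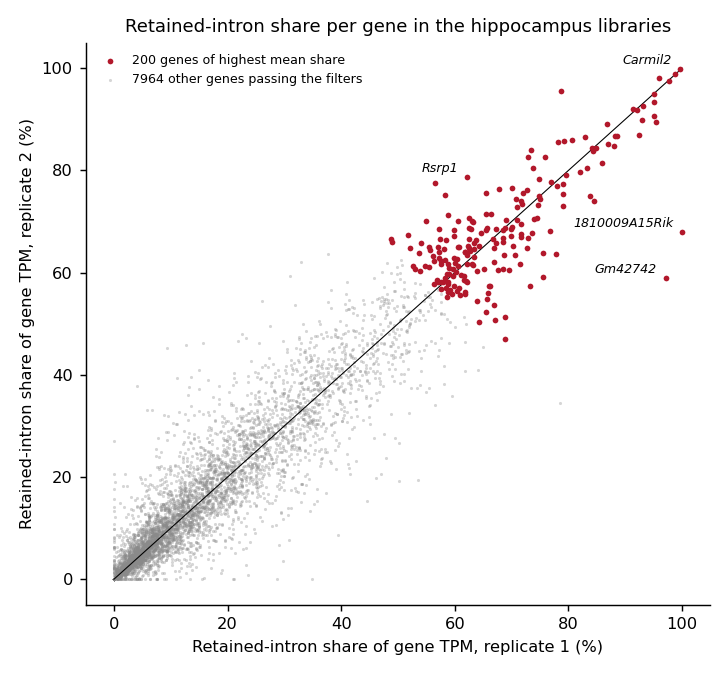
Share of each gene's TPM on retained-intron transcripts in replicate 1 (x axis, %) and replicate 2 (y axis, %), with the 200 genes in red and the 7964 other genes in grey; the line marks equal shares. The 200 genes lie at the upper end of a continuous cloud, and of them 1810009A15Rik and Gm42742 fall farthest from the line.

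Genes of the cytosolic ribosome gave 4 of the 15 highest shares. Rps16, Rps20, Rps26 and Rps13 encode proteins of the small ribosomal subunit. Retained-intron transcripts of Rps16 (chr7:28350652-28353155) reached 265 TPM in replicate 1 and 261 TPM in replicate 2, beside 34.3 and 39.6 TPM of its coding transcripts. Those of Rps20 (chr4:3831334-3835665) reached 197 and 180 TPM, beside 4.47 and 4.77 TPM of coding transcripts. Rps26 had 157 and 148 TPM on retained-intron transcripts, beside 6.64 and 2.98 TPM on coding ones. Rps13 had 108 and 89.9 TPM, beside 5.38 and 6.42 TPM. That the retained-intron level lay above the coding level follows from how the genes were ranked, and the ratio of these levels was largest in Rps20 and Rps26. The family as a whole did not share this: of 80 cytosolic ribosomal protein genes ranked, 4 were among the 200, 5.00% beside 2.45% of all genes, and the family's median share was 2.11%. Many ribosomal protein genes have near-identical processed pseudogenes, so how reads were divided among copies is uncertain here. A small nucleolar RNA gene, Gm24016, lies inside the leading Rps20 transcript and Snord14a lies inside 3 minor Rps13 transcripts, and both had 0 counts of their own.

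Some genes of mitochondrial energy production were also among the 200. The 10 genes of highest retained-intron level included 3 subunits of cytochrome oxidase, the cytochrome bc1 complex and ATP synthase. Cox7b (chrX:106015700-106022450), a cytochrome oxidase subunit, had 207 and 211 TPM on its retained-intron transcript and 2.56 and 2.43 TPM on its coding transcript. Uqcrh, the hinge protein of the bc1 complex, had 153 and 113 TPM, beside 66.9 and 93.4 TPM of coding transcripts. Atp5j, a coupling factor of ATP synthase, had 112 and 127 TPM, beside 64.4 and 63.7 TPM. In the second table the coding level was far below the retained-intron level in Cox7b, and it was near that level in Uqcrh in replicate 2. The first table gave Cox7b 109 and 115 TPM on the retained-intron transcript, beside 54.7 and 54.6 TPM on the coding one. Chchd10, a protein of the mitochondrial intermembrane space, had 107 and 125 TPM, beside 61.9 and 64.6 TPM. Of the 36 ranked genes of these 3 complexes, 3 were among the 200, or 8.33% beside 2.45% of all genes, with a median share of 1.32%. Of 37 NADH dehydrogenase subunit genes, 4 were (Ndufab1, Ndufb10, Ndufb4 and Ndufc1), or 10.8%, with a median of 1.16%. Of 71 mitochondrial ribosomal protein genes, 4 were (Mrps26, Mrpl57, Mrps25 and Mrps24), or 5.63%, with a median of 3.56%. The medians of these families all lay below the 4.95% of all genes ranked, so the families as a whole did not share the high values. These family lists and the cytosolic one were drawn up after the values were seen, so their counts are descriptions only.

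The remaining genes of highest retained-intron level have other roles. Prdx2, a peroxiredoxin that reduces peroxides, had 137 and 133 TPM on retained-intron transcripts and 106 and 97.2 TPM on coding ones. The retained-intron part of Prdx2 was the smaller by other measures, with mean shares of 33.0% in the first table and 33.1% by estimated counts. Myl6, an essential light chain of non-muscle myosin, had 163 and 164 TPM beside 53.6 and 67.4 TPM. Ctsb, a lysosomal cysteine protease, had 117 and 128 TPM beside 71.5 and 73.6 TPM.

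**Figure D2:**
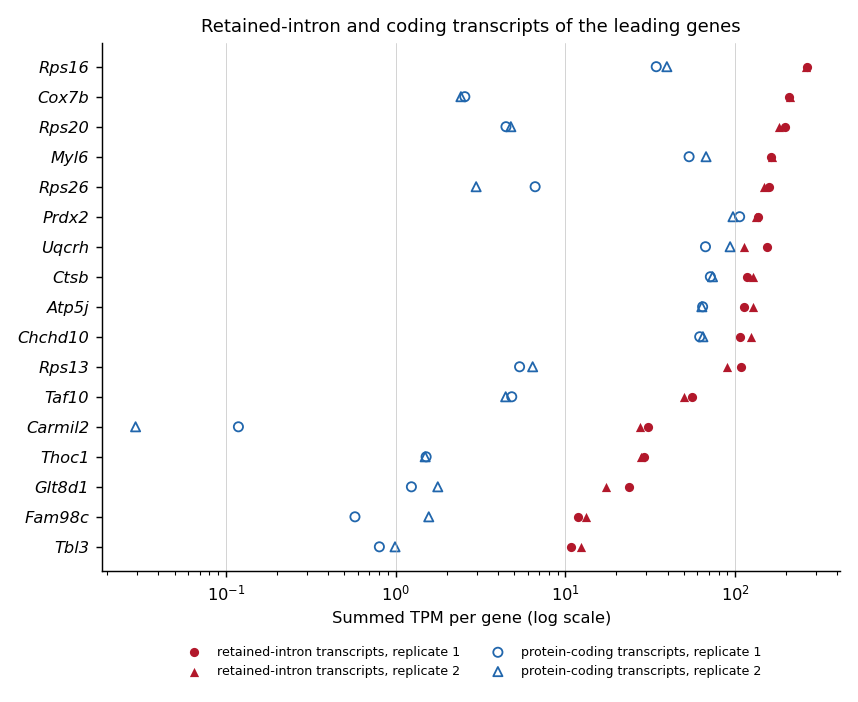
Summed TPM (x axis, log scale) of retained-intron transcripts (filled red) and protein-coding transcripts (open blue) in replicate 1 (circles) and replicate 2 (triangles) for the genes of highest share or highest retained-intron level, ordered by the latter. Retained-intron levels exceed coding levels in every gene and library shown, which largely follows from how the genes were ranked. On the log scale the gap is smallest in Uqcrh in replicate 2 and largest in Carmil2.

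Among the 10 highest shares, 6 genes belong neither to the ribosome nor to respiration. Carmil2 (chr8:105686274-105698187), a regulator of actin capping protein, stood highest at 99.6% and 99.9%, with 30.6 and 27.4 TPM on retained-intron transcripts and 0.119 and 0.0294 TPM on its coding transcript. Thoc1 (chr18:9957906-9995489), a subunit of the THO complex that couples transcription to mRNA export, followed at 95.1% and 94.9%, spread over 9 retained-intron transcripts of at least 0.5 TPM in a library. Tbl3, a component of the nucleolar machinery that processes small-subunit ribosomal RNA, had shares of 93.0% and 92.5%. The libraries were close in all 3 genes. Taf10, a subunit of the general transcription factor TFIID, had 92.0% and 91.9%. Glt8d1, a member of the glycosyltransferase family, had 95.1% and 90.7%, and Fam98c had 95.4% and 89.4%. Carmil2, Tbl3 and Fam98c overlap another gene on the opposite strand, as do Thoc1 and Taf10, and without the strand setting of the counting such reads cannot be told apart from their own.

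Genes that act on RNA were the main group set up for comparison. Of 239 ranked genes on the RNA-processing lists, 14 were among the 200, or 5.86% beside 2.45% of all genes ranked. The median share over these lists was 10.5%, beside 4.95% over all genes. No set test was run, and the lists were chosen with earlier results of these data known. Genes without an annotated retained_intron transcript were not left out of the lists or of the genes ranked. Of the 8164 genes ranked, 5304 had one, and how many genes of each list did was not counted. Differences between lists may thus be in part differences in annotation, which was not tested. The other lists, which hold synaptic, channel, ribosomal, proteasome, tRNA synthetase and p53-related genes, gave 1 gene of 192, Tars, which encodes threonyl-tRNA synthetase. The ribosomal list among these holds 29 genes only, and the 4 ribosomal protein genes described above lie outside it. The synaptic and channel lists gave 0 of 115 genes, with a median share of 0.697%. They do not hold every such gene: Kcnt1, Ryr3 and Stx2, described below, are among the 200 and lie outside them.

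Within RNA processing, the SR-related and speckle proteins gave the most members, 5 of 35 ranked genes. Rsrp1 (chr4:134923592-134927671), a small arginine- and serine-rich protein, had 62.2 TPM of retained-intron transcripts in replicate 1 and 87.0 TPM in replicate 2, beside 27.9 and 7.52 TPM of its coding transcript. Arglu1 (chr8:8665075-8690521), a nuclear cofactor that modulates splicing, had 24.1 and 31.0 TPM, beside 11.5 and 8.34 TPM. Clasrp (chr7:19581035-19604486), an SR-like protein that binds CLK kinases, had 26.3 and 24.3 TPM, beside 0.397 and 1.67 TPM. In Rsrp1 and Arglu1 the retained-intron level was the higher, and the coding level the lower, in replicate 2. The other members of this list were Rbm5 and Rbm25, regulators of splice site choice, at mean shares of 60.3% and 58.5%. The median share of the list was 27.9%.

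Spliceosome components gave 3 of 54 genes on a list that does not hold every such gene. Snrpb2, a protein of the U2 particle, and Sart1, a protein of the tri-snRNP, are also among the 200. Their mean shares were 87.1% and 71.9%, and both were named after their values were seen. Snrpb2 had 78.6% and 95.6% in replicates 1 and 2, and 0% on transcripts that hold a whole coding intron. By estimated counts its mean share was 88.9%, and that of Sart1 was 17.6%. Prpf39, a protein of the U1 particle that recognises 5′ splice sites, had shares of 69.9% and 67.2%. Sf3b6, which sits at the branch site in the SF3B complex, had 66.9% and 62.0%. Snrnp70, the core U1 protein that binds U1 RNA, had 57.2% and 68.4%, with 100.1 and 112 TPM of retained-intron transcripts beside 72.5 and 51.7 TPM of coding ones. The median of the list was 9.67%, far below these 3.

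Among SR proteins, 1 of 11 was a member, Srsf11 at 65.4% and 68.4%, while the list's median was 23.5%. Of 19 CLK, DYRK and SRPK kinases and transcriptional cyclins and CDKs, 1 was, Ccnl2, a cyclin of nuclear speckles, at 70.7% and 63.4%. The median of that list was 31.2%, the highest among the RNA-processing lists, and its Ccnl1 stayed just outside the 200 at 54.6%. Tia1, which binds U-rich RNA near 5′ splice sites, was the 1 member of 29 neuronal and FET RNA-binding proteins, at 67.3% and 68.5%. Exon junction and nonsense-mediated decay genes gave 2 of 15, Smg9 at 66.1% and 57.3% and Rbm8a at 68.8% and 51.4%. Cleavage, polyadenylation and export genes gave Thoc1, 1 of 24. The 26 hnRNP and PTB proteins and the 27 DEAD- and DEAH-box helicases gave 0, with median shares of 5.14% and 15.6%.

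How far intron-retaining RNA dominated these genes depended on the quantity read. A TPM gives short transcripts more weight per read: the effective length of transcripts of about 300 bases was 81.2 bases in the deposited table, and the leading retained-intron transcript had a median length of 725 bases, against 2649 bases for the leading coding transcript of the same genes. By estimated counts in place of TPM, the median share was 48.9% and 96 of the 200 genes reached 50%, beside 2.19% of all genes ranked. Counts put 20 genes under 20% and 23 at 80% or more. The 41 genes whose leading retained-intron transcript was under 500 bases had a median count share of 40.6%, and the 65 genes in which it was 1000 bases or longer had 65.7%.

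Ctsb shows the gap. Its retained-intron transcripts held 62.1% and 63.5% of TPM but 16.9% and 17.8% of counts. The leading one is 801 bases long and the coding transcript 4743 bases. In Taf10 the count shares were 45.3% and 45.3%, and in Rbm8a they were 21.8% and 11.6%. In Carmil2 they were 99.3% and 99.8%, and in Snrnp70 they exceeded the TPM shares at 76.1% and 83.1%. Of the RNA-processing members, 10 of the 14 reached 50% by counts, and their leading retained-intron transcripts had a median length of 2538 bases, against 722 bases in the other 186 genes.

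The first transcript table, made from the same libraries by another quantification, gave the 200 genes a median share of 63.1%. There 162 genes reached 50%, beside 3.55% of all genes ranked, and 126 lay within 10 percentage points of the second table. For 22 genes the share was lower by 20 points or more and for 4 it was higher by as much. The genes that moved most were Cycs (cytochrome c), Myl6, Cops9, Rex1bd and Eif5b. Myl6 held 74.4% and 70.6% in the second table but 11.9% and 12.2% in the first. Cops9 held 54.0% and 65.9%, against 5.52% and 5.64%. Cycs held 74.7% and 73.3%, against 15.7% and 12.3%. In these 3 genes the gap between the tables was larger than that between the animals, which reached 11.9 points in Cops9. The posterior SD of the leading transcript's count, deposited in the first table, exceeded 2 times the square root of the count in 27 of the 200 genes, 13.5%, against 12.4% of other genes with such a transcript, and Myl6, Cops9, Rex1bd and Eif5b were among the 27.

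What the retained-intron transcripts hold differed among the genes as well. In 66 of the 200 genes, 33.0%, the leading retained-intron transcript held at least 1 whole intron of a coding transcript, against 27.6% of 4199 other genes with such a transcript at 1 TPM or more. In 133 genes, 66.5%, it held no whole coding intron but had bases outside the coding exons of the gene. Those bases were not sorted into parts of introns and other sequence. In 1 gene, Dpm1, it had neither. In Dpm1, and in 2 of the 66 (Fam98c and Gfra4), no base of the leading transcript lay outside the exons of the gene's coding transcripts. When the numerator was limited to transcripts with a whole coding intron, a measure added after the values were seen, the median share of the 200 genes was 18.6% and 39 reached 50%, 35 of them in each library, against a median of 0% and 15 genes among the 7964 others. There were 61 genes with no annotated transcript of that kind. Cox7b, Rps26, Prdx2, Ctsb, Uqcrh, Atp5j, Chchd10, Srsf11 and Sf3b6 had a whole-intron share of 0%, and Rps16 and Snrnp70 had 2.37% and 1.93%.

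Under all 4 measures (TPM, counts, the first table and whole introns), 30 of the 200 genes reached a mean of 50%, and 26 did so in each library. All 200 pass the TPM measure by the ranking, and the whole-intron share uses part of the same TPM, so the measures are not independent. For the 7964 other genes this count was not made, and it can be at most the 15 that reached 50% by whole introns. The 26 were named after the count was made. The 26 comprise Carmil2, Rps20, Tbl3, Fam98c, Mrps26, Prelid1, Spout1, Rgs11, Gfra4, Ppox, Pced1a, Mrps24, Map4k2, Asb6, Ankzf1, Elp5, Rsrp1, Sirt7, Tmem191c, Hapln2, A230050P20Rik, Arglu1, Mdp1, Daam2, Akap8l and Arsa. Rsrp1 and Arglu1 are the RNA-processing list genes among them. The leading retained-intron transcript overlaps another gene in 38 of the 200 genes. Of the 26, Carmil2, Tbl3, Fam98c, Mrps26, Prelid1, Spout1, Ankzf1 and A230050P20Rik have such an overlap on the opposite strand. Rps20, Gfra4, Tmem191c, Arglu1 and Mdp1 have it on the same strand. How far their reads came from the overlapping genes was not tested. Prelid1, which carries phosphatidic acid between mitochondrial membranes, had whole-intron shares of 88.0% and 84.8% and count shares of 74.6% and 69.0%. Mrps26, a mitochondrial ribosomal protein, had whole-intron shares of 91.4% and 92.0%. Rgs11, a regulator of G protein signalling, had 80.7% and 84.4%. Gfra4, a receptor subunit for a GDNF family ligand, had 84.3% and 83.8%, and as in Fam98c every base of its leading retained-intron transcript lies in an exon of some coding transcript. Hapln2, a link protein of the matrix at nodes of Ranvier, had 55.2% and 58.0%.

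**Figure D3:**
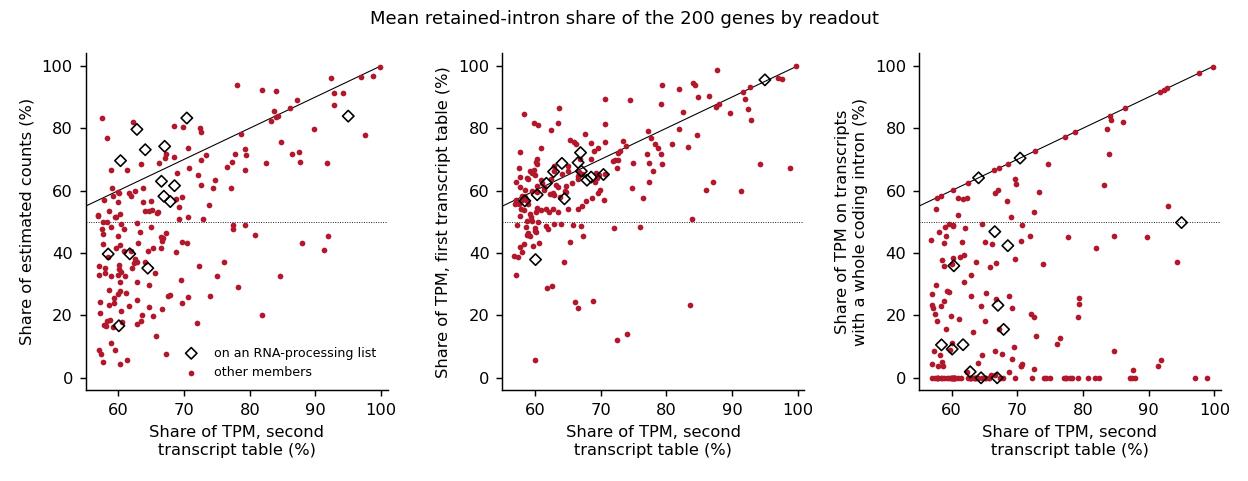
Mean retained-intron share of TPM in the second transcript table (x axis, %) against 3 other measures (y axes, %) for the 200 genes; open diamonds are the 14 genes on RNA-processing lists, the solid line marks equal shares and the dotted line 50%. Points lie on both sides of the solid line in the panel of counts, and many lie at 0% in the panel of whole introns, where the median is 18.6%.

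The structures behind these numbers differ from gene to gene. Rsrp1-204 keeps the intron in place 3 of 4 and is otherwise spliced like Rsrp1-201, and it is longer than it, at 3051 against 1749 bases. Arglu1-204 keeps the intron in place 2 of 3. Rps20-202 keeps 1 intron of 182 bases and is 512 bases long, against 3706 bases for its coding transcript. Cox7b-203, by contrast, has 2 exons, of which the first begins inside the long first intron, and 35.7% of its bases lie outside coding exons. Rps16-203 has 13.1% of its bases outside coding exons. Snrnp70-216 has 59.0% of its bases outside coding exons, in an exon that starts within an intron and runs into the next exon.

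**Figure D4:**
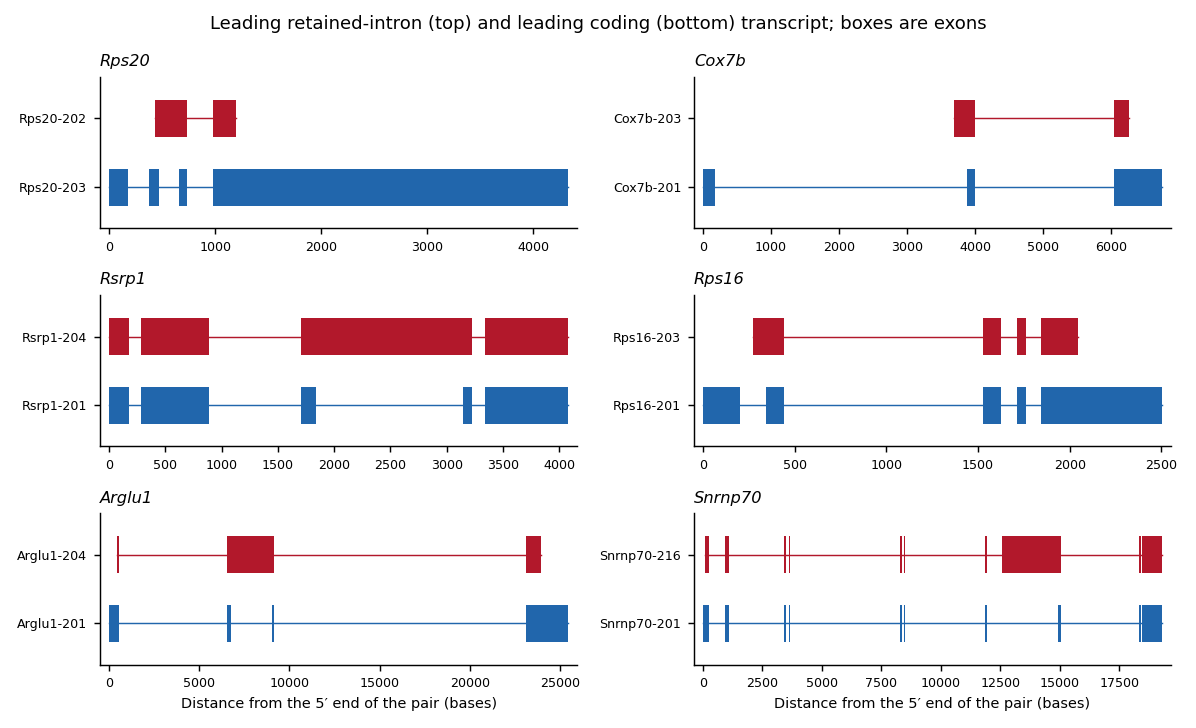
Exons (boxes) of the leading retained-intron transcript (red, top) and leading coding transcript (blue, bottom) of 6 genes along the distance from the 5′ end of the pair in bases (x axis, own scale for each gene). The left column shows genes with a whole intron kept (Rps20, Rsrp1, Arglu1), and the right column genes in which the transcript holds part of an intron (Cox7b, Rps16, Snrnp70).

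Most of the sequence of these transcripts was shared with coding messages. A median of 20.7% of the bases of the leading retained-intron transcript lay outside all coding exons of the gene, against 40.5% in the other genes. At least 50% lay outside in 30 of the 200 genes (15%), against 39.2% of the other genes, and under 10% did in 40 genes. The leading transcripts were shorter than the coding transcript in 163 genes, 81.5%, against 79.4%, so in that they were like those of other genes. Transcripts under 500 bases led in 20.5% of the 200 genes, against 13.3%. A single-exon transcript led in 2.50%, against 8.57%.

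Whole introns kept in the leading transcripts numbered 88 in 65 of the genes, after leaving out 2 of 90 that were under 30 bases or too near a transcript end. In 3 genes (Akap8l, Gtpbp6 and Ppox) some are alternative introns of different coding transcripts that overlap, so that the 88 cover 84 separate stretches. They were short, with a median of 156.5 bases, against 306 bases for 1906 such introns of other genes. Under 200 bases were 59.1% of them, against 35.8%. The introns of the leading coding transcripts were also shorter in these genes, with a median of 675 bases, against 1363 bases. The GC content of the 88 kept introns had a median of 55.1%, against 51.8% for the 1906 of other genes. The ends were GT and AG in 85 introns and GC and AG in 3, and 0 had the AT and AC ends of the minor class. A start of GTAAG or GTGAG, read on the strand of the gene at the first 5 intron bases, was found in 40.9%, against 48.1% of the introns of other genes, and the 7 letters TATCCTT at intron bases 2 to 8 in 0%, against 0.472%. None of the 88 was the last intron of its transcript, against 9.44% of the introns of other genes, and 10 were the first, 11.4% against 16.5%. A length divisible by 3 was about as frequent, at 31.8% against 32.3%. Introns of a gene are not independent of each other, and these values describe the annotation of transcripts that the ranking chose.

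**Figure D5:**
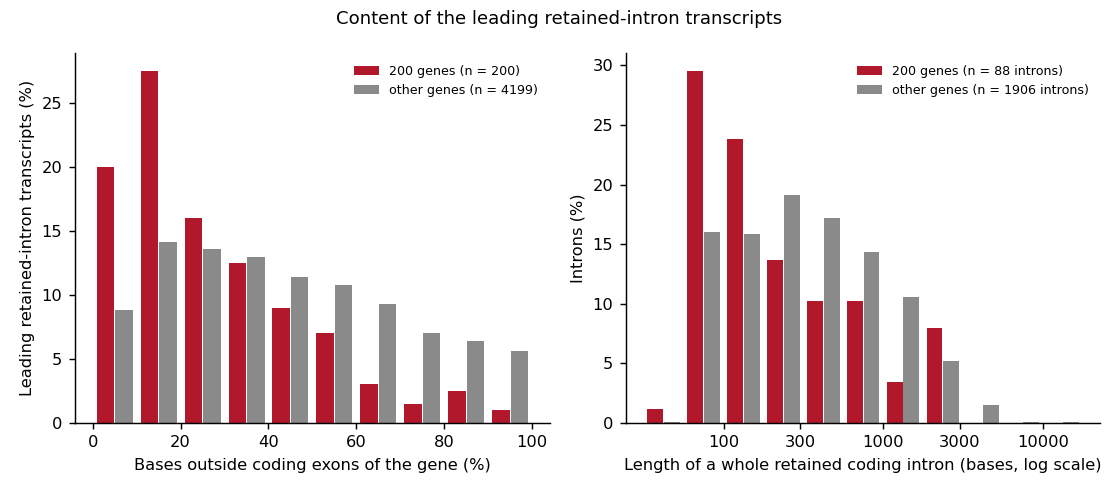
Left, bases of the leading retained-intron transcript outside coding exons (x axis, %) and the percent of transcripts in each class of 10 points (y axis) for the 200 genes (red) and 4199 other genes (grey). Right, length of whole retained coding introns (x axis, bases, log scale) and the percent of introns (y axis) for 88 and 1906 introns. The 200 genes lie toward few bases outside coding exons and toward short introns.

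Between the animals, none of the 200 genes differed at least 2-fold in gene count, beside 1.11% of 15440 genes tested (0.589% higher and 0.518% lower in replicate 2). A call needed a mean count of 50 and an exact 95% interval excluding equality. No p-value can be given with 1 library for each animal. Log2 ratios of replicate 2 over replicate 1 ran from -0.55 to 0.56, with a median size of 0.11 against 0.14 over all genes tested and 0.10 over the 8162 tested genes that pass the filters of the ranking. Rsrp1 had 6360 counts in replicate 2 and 6368 in replicate 1, a log2 ratio of 0.25 after scaling (95% interval 0.20 to 0.30, counting error only). Rbm8a had 623 and 924 counts, a log2 ratio of -0.32 (-0.47 to -0.17). Both lie well inside 2-fold.

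The split between retained-intron and coding transcripts was read in percentage points, a scale that cannot be set directly against the ratios of gene counts. The median difference in share between the animals was 3.72 points over the 200 genes, and 29 genes differed by 10 points or more, with the share higher in replicate 2 in 15 and lower in 14. Over all genes ranked, whose median share was 4.95%, 5.78% did so. Among the 1568 other genes with a mean share of at least 20%, 18.6% did so, a larger fraction than among the 200. A difference of 20 points was met by 4 of the 200, 1810009A15Rik, Gm42742, Tmem205 and Stx2, beside 0.759% of all genes. In 1810009A15Rik retained-intron transcripts had 8.45 TPM in replicate 2 and 13.8 TPM in replicate 1, and coding transcripts 3.99 and 0 TPM. In Gm42742 the share was 58.9% in replicate 2 and 97.1% in replicate 1, and a coding transcript at 5.55 TPM in replicate 2 was near 0 in replicate 1. In Tmem205 the share was 77.6% in replicate 2 and 56.4% in replicate 1, in the opposite direction. 1810009A15Rik and Gm42742 overlap other genes on the same strand, Gm49416 and Lbhd1 for 1810009A15Rik and Pagr1a, Pagr1b and Prrt2 for Gm42742, so the gene that such reads came from is uncertain. Stx2, a syntaxin of membrane fusion, had 47.1% in replicate 2 and 68.8% in replicate 1. Poglut1, a glucosyltransferase that acts on Notch, had 66.5% in replicate 2 and 48.8% in replicate 1. Among the 14 RNA-processing genes, 3 differed by 10 points or more, and the share was higher in replicate 2 in 6 of the 14.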

How the data were processed

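For each library the authors deposited gene and transcript tables (mm10, GENCODE M21), per the notes that accompany them. Judged by column names, the first transcript table is in RSEM format and the second, made from 1 FASTQ file a library, in kallisto format. Tools, versions and strand setting are not stated there. Expected or estimated counts, which share reads among matching transcripts, were deposited without normalisation. TPM was deposited by the authors after division by effective length, which did not differ between the libraries. A further signal, the posterior SD for each transcript in counts, stands in the first table as deposited.

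The members and lists were chosen with earlier results of these data known. Named were the 10 highest shares, the 10 highest retained-intron levels, up to 3 genes of each list, the 3 genes on each side of the cut, and the 5 that varied most between animals or tables. The leading transcript is the one of highest mean TPM in its class. Gene counts, rounded, were scaled by TMM in edgeR 4.0.16 (R 4.3.3) with a prior count of 2. DESeq2 1.42.0 size factors, spike-in scaling, other minimums, counts, the first table, other denominators, transcripts of at least 500 bases and each library left out were the alternatives. Exact Clopper-Pearson 95% intervals cover counting error only. Gene models came from GENCODE M21. Scripts ran in Python 3.11.15 and were tested on simulated data.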

Additional observations from a re-analysis of the deposited data

How the results depend on the processing

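Of the 200 genes, 103 stayed among the 200 highest when shares were taken from counts, 131 with a minimum of 20 TPM, 138 with the first transcript table, and 77 with transcripts holding a whole coding intron alone, an alternative added after the values were seen. The median share of 65.2% became 48.9% by counts, 63.1% in the first table, 67.2% with a minimum of 5 TPM, 59.8% with 20 TPM, 69.6% with coding and retained-intron transcripts alone in the denominator, 62.3% with transcripts of at least 500 bases and 18.6% with whole introns; with 1 library left out it lay between 65.5% and 65.9%. Genes reaching 50% numbered 96 by counts and 39 by whole introns. Genes of the RNA-processing lists numbered 12 to 21 over these settings, against 14. A difference of 20 points between animals was met by 4 genes, against 29 at 10 points. The count of 0 genes at least 2-fold apart was the same under 5 alternatives, including scaling to spike-ins, which moved the median log2 ratio of all genes to -0.24. All 200 genes already met the count minimum, so the alternatives with a lower minimum or none could not change that count. For 43 named genes, 256 of 334 values under alternatives lay within 1 SD and 78 moved, 20 up and 58 down. Many of the 256 were fixed in advance and are no sign of stability. A changed TPM minimum leaves a gene's own share as it was. With 2 libraries, the value of either alone always lies within 1 SD of their mean. The causes were not tested. No paired analysis was possible because there is only 1 group.

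Depth limits transcripts with few counts, and 2 libraries give a coarse SD. Transcripts that share most bases with a coding transcript rest on the division of shared reads, and reads of overlapping genes and pseudogene copies cannot be told apart.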

Other observations

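Several of the 200 genes have known roles in brain cells or the nucleolus. They were picked after their values were seen and form no tested group. Kcnt1, a sodium-activated potassium channel, had retained-intron shares of 61.8% and 55.9% in replicates 1 and 2, and Ryr3, a ryanodine receptor of intracellular calcium stores, had 58.4% and 57.0%. The channels differ in the other measures: by counts Kcnt1 had a mean share of 66.5% and Ryr3 5.19%. Syne1, a giant spectrin-repeat protein of the nuclear envelope and synapse, had 60.6% and 61.3% of TPM. Apod, a lipid-binding protein of glia, had 61.8% and 64.0%, and Daam2, a formin-related regulator of Wnt signalling in oligodendrocytes, had 63.1% and 61.4%.

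Among nucleolar proteins, Ncl (nucleolin) had 34.5 and 37.9 TPM on retained-intron transcripts, beside 15.5 and 16.0 TPM on coding ones. Gar1, a core protein of the particles that guide pseudouridylation, had 18.1 and 13.5 TPM, beside 10.5 and 7.41 TPM. Nat10, an acetyltransferase that modifies ribosomal RNA, had 11.3 and 12.3 TPM, beside 7.09 and 8.73 TPM. Shares of counts were lower than shares of TPM in these genes, at means of 43.4% in Ncl, 37.1% in Gar1 and 36.0% in Nat10, and the first table gave mean shares of 73.7%, 49.2% and 48.0%. A small RNA gene lay whole within a retained-intron transcript in 6 of the 200 genes, 3%, against 1.59% of other genes with such transcripts. They were Rps20, Rps13, Ncl, Gfra4, Ankrd10 and Sirt7. The 200 genes have a median of 4 annotated retained_intron transcripts, against 1 in the other genes ranked, and this difference was not allowed for.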
